A study of Mus musculus with 8 samples.

Results

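The comparison described here is between mouse 3T3-L1 cells that had been exposed for 3 h to supernatant of USP2-knockdown cells and cells exposed for 3 h to supernatant of control cells. The differences rest on the 4 arrays labelled with these groups and the 3 h time point, with 2 arrays per group. Their standard errors and p-values take each feature's spread from all 8 arrays of the series. A gene or unnamed probe, called a feature below, was a member when either of these groups had it well above background on both of its arrays. This held for 25395 of 49094 features, of which 13653 carried a gene name and 11742 did not.

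3T3-L1 cells are mouse fibroblasts that differentiate into fat-like cells in suitable medium. All cells had spent 1 week in adipogenic medium and all received a supernatant diluted 2-fold, so no group was left without supernatant. The supernatants came from cultures of human HL-60 leukemia cells kept in Opti medium and treated for 5 days with PMA at 30 nM, a phorbol ester that drives HL-60 cells towards a macrophage-like state. The knockdown supernatant came from HL-60 cells with USP2, a protease that removes ubiquitin from proteins, knocked down, and the control supernatant from HL-60 cells carrying a mock vector. The knockdown was therefore made in the human cells and not in the cells on the arrays. The labels call the 2 arrays of a group biological replicates and do not say whether they shared a batch of supernatant, so the p-values speak of the spread between these samples alone, which may be technical. The question the comparison addresses is which transcripts of the recipient cells differed early with the source of the supernatant.

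Each array held 59305 non-control spots, of which 52.9% to 55.9% were well above background on the 3 h arrays. Levels are given as log2 signal relative to the 75th percentile of the array, and they compare arrays for 1 probe and not genes with each other. Across features the 3 h replicates correlated at 0.997 in the control and 0.998 in the knockdown group. The 6 h replicates, which enter the spread too, correlated at 0.989 and 0.994. The SD of the replicate differences was 0.51 in the control and 0.38 in the knockdown group at 6 h, against 0.24 and 0.21 at 3 h. A wide standard error of a 3 h difference can therefore come from the 6 h arrays. The control samples were hybridised in columns 1 and 2 of the slide and the others in columns 3 and 4, so effects of column and of supernatant cannot be told apart. The labels call the cells adipocytes. Of 29 adipocyte markers, 14 passed the background test on every one of the 4 arrays, among them Fabp4, Lpl and Pparg, and 13 on none, among them Adipoq, Lep, Cfd, Plin1, Cidec and Slc2a4. Preadipocyte and fibroblast markers were nearly all present, 25 of 27 on every one of the 4 arrays. The summed linear signal of the adipocyte markers was 264.4 and 262.0 with control and 262.8 and 256.1 with knockdown supernatant. Of 24 macrophage and leukocyte markers with a probe, 12 passed the background test on all 4 arrays, among them Itgam, Fcgr1 and Cd14. The other 12 passed it on none, among them Ptprc, Adgre1 and Spi1. Their summed signal was 53.7 and 50.5 with control and 61.9 and 63.1 with knockdown supernatant. Such a sum weighs bright probes most and does not stand for a typical marker. Of the 12 macrophage and leukocyte markers tested, 6 differed above 0 and 6 below, with a median of -0.020, and 0 passed in limma.

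When cells meet a new mixture of cytokines and growth factors, receptors at the surface switch on kinase cascades, and existing transcription factors start a first wave of transcription that needs no new protein. This wave holds transcription factors of the Fos, Egr and Nr4a families, secreted ligands that pass the signal on, and feedback inhibitors that end it. In fat cells and their precursors, cytokines such as interleukin-6 and members of the TGF-beta family are known to shift lipid handling and differentiation.

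Cells given knockdown supernatant for 3 h held more transcript of a small set of cytokines, growth factors, immediate early transcription factors and feedback inhibitors, and less of an even smaller set. Of the 25395 features, 65 passed (0.256%; limma, adjusted p under 0.05), 59 of them higher (0.232%) and 6 lower (0.0236%). Of the named genes 48 rose and 6 fell, and the other 11 were unnamed probes, all higher. The largest rises of named genes were those of Serpinb2, Il6 and Id3, and the smallest was 1.44-fold, for Tsc22d1. On all 65 the 2 arrays of one group lay wholly above or below the 2 of the other. Both knockdown arrays lay above both control arrays for 20.4% of all features and below them for 26.9%, so that this separation alone is common here. Where it is described below for single genes that passed, it is no further support for them. Features at an unadjusted p under 0.05 were split more evenly, with 1273 higher and 1445 lower, and the median difference over all features was -0.016 on the log2 scale. The number that passed rests on few arrays. It was 0 in limma when control 3 h replicate 1, either knockdown 3 h array or either knockdown 6 h array was left out. It was 2 when control 3 h replicate 2 was left out and 50 when either 6 h control array was, with 1609 to 3518 features at an unadjusted p under 0.05 in these fits. The balance of directions rests on the settings too: 90.8% of the features that passed were higher, against 50% of the 10 that passed with no scaling between arrays, 73.5% with array weights and 80.2% with a trend and robust variances. Because RNA was taken from whole cultures, a change in the share of cells that make a transcript and a change per cell cannot be told apart.

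Sizes of dim genes depend on the background correction and its offset. Normexp, a background correction that models signal and background together, was used with quantile normalization in place of the scanner's correction. It was run with a constant offset added to each spot, which by itself shrinks the log2 differences of dim probes. The share of the offset was not tested. In this setting, called normexp below, the log2 difference was over 1.5 times smaller for 10 of the 54 named genes that passed, and the value is given beside each of them. Some calls near the threshold depend on a setting: Hunk, Mylk2, Slc25a29, Angptl4 and Hmga2-ps1 did not pass with quantile normalization, Hunk, Mylk2, Slc25a29 and Kcne1 with the deposited values, Hunk and Mylk2 with normexp, Hunk and Smad7 with the filter over all 4 groups, Hunk with a variance trend and robust variances, and Kctd11, Pdgfb and Tsc22d1 with the mean of a gene's probes. With each array's median as its scale 25 of the 54 did not pass. Other settings also removed calls far from the threshold. Of all 65 features, 6 passed in limma with no scaling and 9 with the replicate number as a block. None passed without the filter on dim probes or with the 3 h arrays alone, where 3128 and 3570 features were at an unadjusted p under 0.05.

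**Figure D1:**
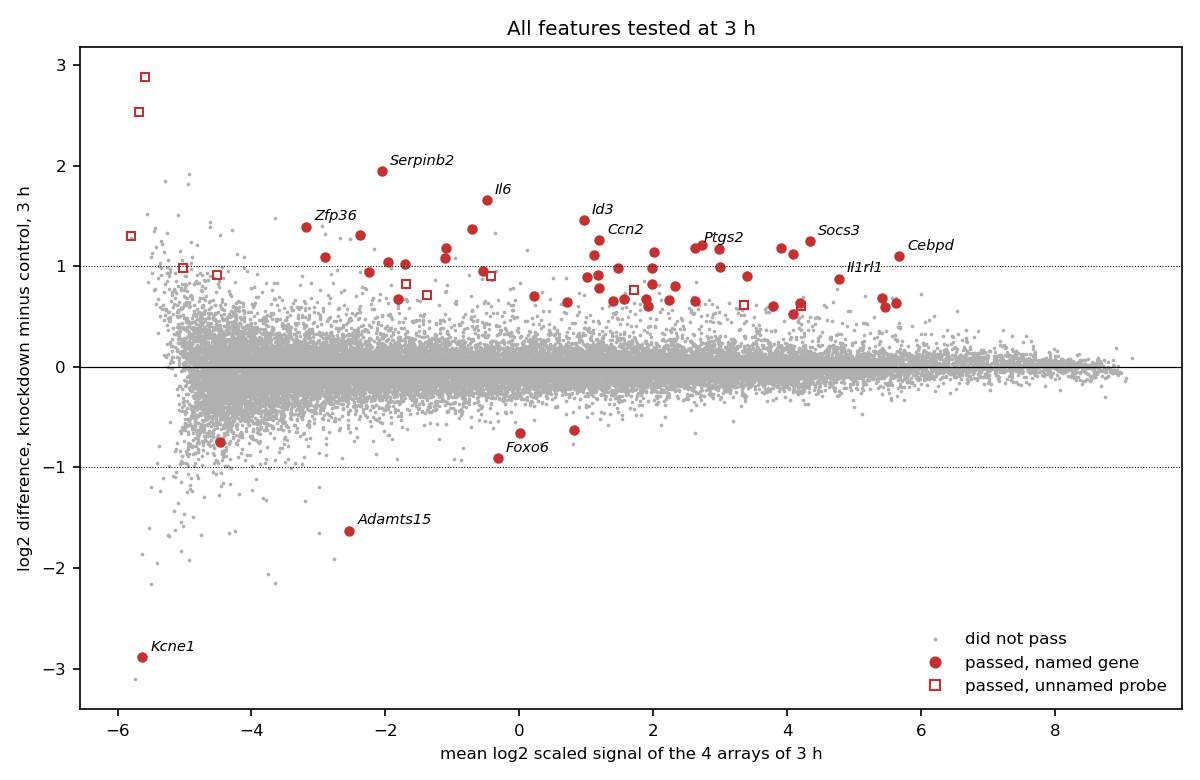
Log2 difference between the knockdown and control groups at 3 h (vertical) against the mean log2 scaled signal of the 4 arrays (horizontal) for all 25395 features, with the dotted lines at a 2-fold difference. The named genes that passed (filled red), 48 above and 6 below 0, lie from low to high signal but not at the brightest end, while features that did not pass (grey) spread widest at low signal.

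**Figure D2:**
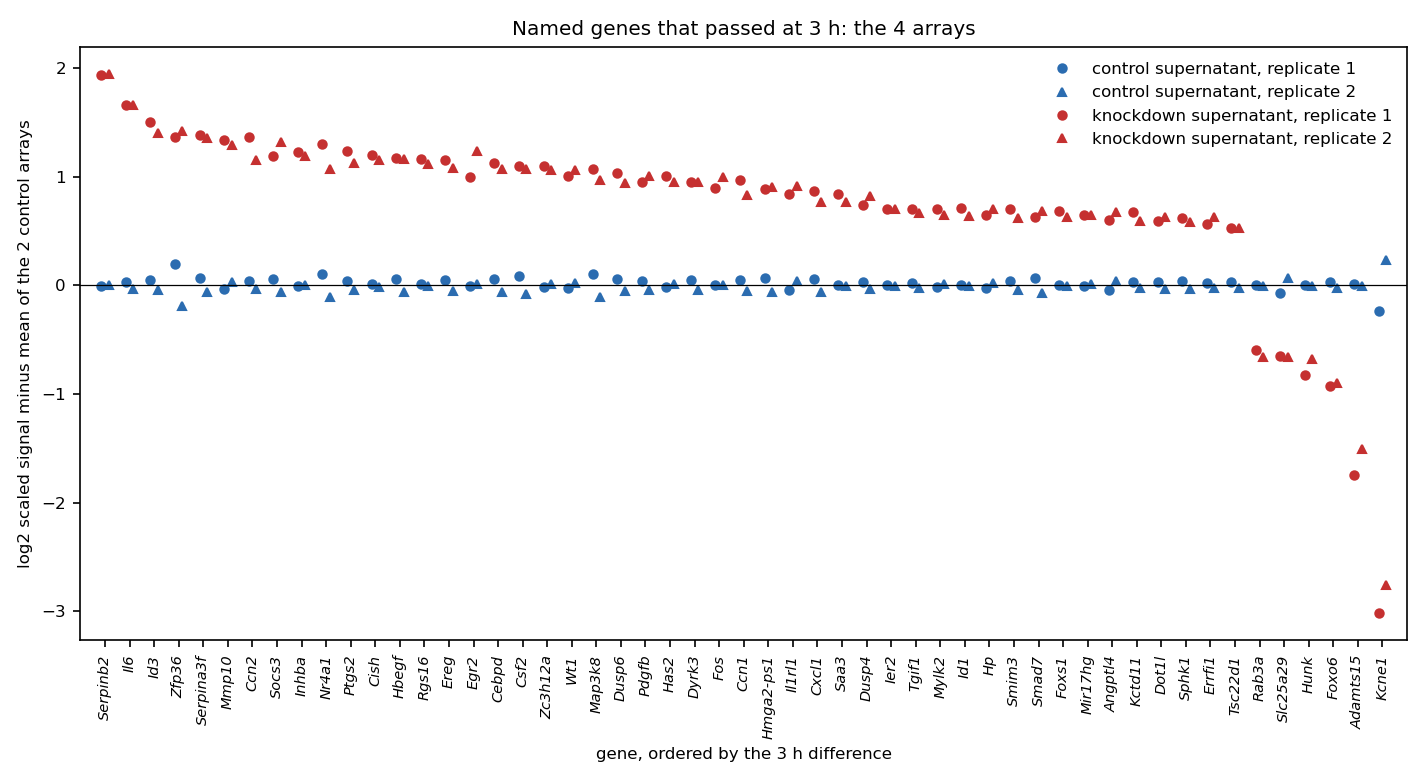
Each of the 4 arrays of 3 h for 53 of the 54 named genes that passed, as log2 scaled signal minus the mean of the 2 control arrays. Circles are replicate 1 and triangles replicate 2; for every gene shown the knockdown arrays (red) lie on one side of the control arrays (blue). Serpinb2 lies highest, at 1.94; the points of Kcne1 with knockdown supernatant were not well above background and show no measured level.

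The promoters of 6 genes that rose are shown because they belong to the groups described next, a cytokine, a chemokine, a feedback inhibitor, an mRNA decay factor, a transcription factor and a serpin, and rose together. Each window is the RefSeq sequence of GRCm38.p6 from 250 bases before to 50 bases after the annotated start, written 5' to 3' on the strand of the gene, with matches to the motifs searched in capitals.
Il6 (chr5:30012864-30013163, plus strand): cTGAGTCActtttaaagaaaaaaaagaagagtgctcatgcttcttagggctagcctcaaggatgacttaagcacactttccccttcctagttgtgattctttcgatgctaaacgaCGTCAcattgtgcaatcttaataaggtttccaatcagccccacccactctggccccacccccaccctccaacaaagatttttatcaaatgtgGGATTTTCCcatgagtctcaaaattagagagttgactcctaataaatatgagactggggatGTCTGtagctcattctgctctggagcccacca
Cxcl1 (chr5:90890995-90891294, plus strand): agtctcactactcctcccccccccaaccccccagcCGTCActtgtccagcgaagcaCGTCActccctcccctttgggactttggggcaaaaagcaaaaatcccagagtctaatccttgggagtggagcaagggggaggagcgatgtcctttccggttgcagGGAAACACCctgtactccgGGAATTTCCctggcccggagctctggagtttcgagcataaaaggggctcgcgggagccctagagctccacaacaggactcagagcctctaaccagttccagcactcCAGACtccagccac
Socs3 (chr11:117969317-117969616, minus strand): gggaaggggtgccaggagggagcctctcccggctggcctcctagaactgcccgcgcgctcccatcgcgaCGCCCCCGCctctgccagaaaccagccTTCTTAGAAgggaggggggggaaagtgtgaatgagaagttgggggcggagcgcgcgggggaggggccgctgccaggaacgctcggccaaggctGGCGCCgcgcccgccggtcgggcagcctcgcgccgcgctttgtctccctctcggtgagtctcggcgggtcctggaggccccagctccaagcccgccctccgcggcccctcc
Zfp36 (chr7:28379179-28379478, minus strand): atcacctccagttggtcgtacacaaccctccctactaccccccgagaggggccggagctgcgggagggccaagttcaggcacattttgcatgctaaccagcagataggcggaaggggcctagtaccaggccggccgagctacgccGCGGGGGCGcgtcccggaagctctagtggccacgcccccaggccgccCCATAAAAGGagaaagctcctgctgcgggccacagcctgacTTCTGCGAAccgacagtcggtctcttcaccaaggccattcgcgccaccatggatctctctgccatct
Fos (chr12:85473640-85473939, plus strand): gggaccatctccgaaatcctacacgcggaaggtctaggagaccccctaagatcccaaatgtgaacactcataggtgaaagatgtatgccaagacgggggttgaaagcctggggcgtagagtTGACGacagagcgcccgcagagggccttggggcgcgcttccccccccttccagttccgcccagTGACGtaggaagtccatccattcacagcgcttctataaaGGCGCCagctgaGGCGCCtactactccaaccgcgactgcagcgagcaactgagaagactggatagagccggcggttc
Serpinb2 (chr1:107511173-107511472, plus strand): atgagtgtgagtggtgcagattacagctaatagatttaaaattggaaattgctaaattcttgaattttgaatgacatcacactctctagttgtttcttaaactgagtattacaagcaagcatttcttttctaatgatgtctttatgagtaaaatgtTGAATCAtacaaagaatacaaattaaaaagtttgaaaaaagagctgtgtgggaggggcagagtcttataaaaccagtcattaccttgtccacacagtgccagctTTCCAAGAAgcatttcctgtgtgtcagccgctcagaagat

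Windows were in the RefSeq table used for 10854 of the named genes tested and for 29 of the 48 that rose. The letters searched on both strands were TGANTCA for AP-1, TGACG for the core of CRE and TGACGTCA for the whole, GGNNNTTCC for NF-kB, TTCNNNGAA for STAT factors, GCGGGGGCG for Egr factors, GGAATG for TEAD, CAGAC for Smad, GGCGCC for the BMP element and CACGTG for the E-box, and the CArG box was searched by its usual pattern. The core of CRE lies within the whole one. The Il6 window held an AP-1 match near its upstream end and an NF-kB match at -43. The Cxcl1 window held NF-kB matches at -89 and -70, the Zfp36 window a CArG box at -58 and a STAT match at -17, and the Socs3 window a STAT match at -154. The Serpinb2 window held an AP-1 match at -94 and a STAT match at +11, and the Fos window cores of CRE at -129 and -66. The windows of Id3 and Ptgs2, which rose too, are not shown. They held the core of CRE and Smad letters but no AP-1, NF-kB or STAT match. The Id3 window also held a TEAD match at -203, and the Ptgs2 window a BMP match at -190 and an E-box at +17. Among the 29 windows of genes that rose, AP-1 letters were in 4 of 29 against 5.47% of all 10854, STAT letters in 6 of 29 against 7.20%, TEAD letters in 8 of 29 against 12.3%, NF-kB letters in 7 of 29 against 21.6% and Egr letters in 3 of 29 against 5.05%. The core of CRE was in 9 of 29 against 30.3%, Smad letters in 15 of 29 against 47.9%, BMP letters in 5 of 29 against 19.8%, the E-box in 2 of 29 against 9.80%, the CArG box in 1 of 29 against 1.47% and the whole CRE in 0 of 29 against 3.11%. These are descriptions of letters in a window and were not tested.

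Among transcription factors of the first wave, 1 of the Fos family, 2 of the Egr and Nr4a group and the early response gene Ier2 rose. Nr4a1, an orphan nuclear receptor made soon after many stimuli, measured 3.42 and 3.21 with control and 4.62 and 4.39 with knockdown supernatant. The difference was 1.18 ± 0.12 (SE, n = 2 arrays per group; limma adjusted p = 0.0392) or 2.27-fold. Egr2, a zinc finger factor of the same early wave, measured 0.54 and 0.56 with control and 1.55 and 1.79 with knockdown supernatant. It rose by 1.11 ± 0.093 (adjusted p = 0.0268). For both genes the 2 knockdown arrays lay above the 2 control arrays with a clear gap. Fos, the partner of Jun proteins in the AP-1 dimer, measured -2.72 and -2.72 with control and -1.83 and -1.73 with knockdown supernatant. The difference was 0.94 ± 0.078 (adjusted p = 0.0267), and 0.59 with normexp. Ier2 rose by 0.70 ± 0.064 (adjusted p = 0.0314). The gene lists here and below were chosen with earlier results of these data known, so their counts are descriptions. Over all 25395 features 0.232% rose and 0.0236% fell, with 1273 higher and 1445 lower at an unadjusted p under 0.05. Of the 21 Egr, Nr4a and other immediate early factors tested, 3 rose and 0 fell (limma; 14 higher and 0 lower at an unadjusted p under 0.05). Their median was 0.51 against -0.016 over all features. Both knockdown arrays lay above both control arrays for 17 of the 21, against 20.4% of all features. Of the 13 AP-1 factors tested, 1 rose and 0 fell (limma; 7 higher and 0 lower at an unadjusted p under 0.05), with a median of 0.38. Of these 13, 8 had both knockdown arrays above both control arrays, beside the same 20.4% of all features. Fosl1 and Fosl2, further Fos family members, measured differences of 0.63 ± 0.084 and 0.45 ± 0.061 and did not pass (adjusted p = 0.0685 and 0.0685), while Jun itself was at 0.089 ± 0.12 (adjusted p = 0.895). The medians of both groups lay above 0 under every scaling tried, from 0.45 to 0.59 for the first and from 0.33 to 0.46 for the second.

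Several other transcription regulators rose. Cebpd, an early factor of both adipogenesis and the acute phase response, measured 5.19 and 5.07 with control and 6.25 and 6.20 with knockdown supernatant. It rose by 1.10 ± 0.084 (limma adjusted p = 0.0204). Wt1, a zinc finger factor best known from kidney and mesothelium, measured -2.50 and -2.45 with control and -1.47 and -1.41 with knockdown supernatant. The difference was 1.04 ± 0.080 (adjusted p = 0.0204). Foxs1, a forkhead factor, rose by 0.66 ± 0.059, the histone methyltransferase gene Dot1l by 0.61 ± 0.065, and Tsc22d1, a leucine zipper protein first found as induced by TGF-beta, by 0.53 ± 0.057. The Krueppel-like factors, zinc finger regulators with many roles in fat cell differentiation, did not pass: of the 14 factors tested, 0 rose and 0 fell (limma; 4 higher and 1 lower at an unadjusted p under 0.05), with Klf5 at 0.85 ± 0.13 (adjusted p = 0.0875). Among adipogenic transcription factors Cebpd was the only one of 27 that passed, beside Pparg at -0.098 ± 0.058 and Cebpa at -0.12 ± 0.086 (adjusted p = 0.649 and 0.728), and the median of that list, -0.049, turned above 0 with each array's median as its scale.

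The cytokine gene that rose most was Il6, which encodes interleukin-6, a ligand that signals through gp130 and STAT3. It measured -1.29 and -1.35 with control and 0.34 and 0.34 with knockdown supernatant. It rose by 1.66 ± 0.090 (SE, n = 2 arrays per group; limma adjusted p = 0.0109) or 3.16-fold. Both replicates of a group nearly coincided, and the groups lay far apart. The feedback inhibitor Socs3, which blocks gp130 and binds Jak kinases, measured 3.77 and 3.65 with control and 4.90 and 5.03 with knockdown supernatant. The difference was 1.25 ± 0.082 (adjusted p = 0.0167). Cish, a related inhibitor of cytokine receptors that signal through STAT5, measured -1.67 and -1.69 with control and -0.48 and -0.53 with knockdown supernatant. It rose by 1.18 ± 0.058 (adjusted p = 0.0107). Both inhibitors were thus more than 2-fold higher on the knockdown arrays, with no overlap between groups. Of the 22 genes of the IL-6 family, its receptors and its feedback tested, 3 rose and 0 fell (limma; 9 higher and 0 lower at an unadjusted p under 0.05), with a median of 0.21 that lay between 0.16 and 0.29 over the scalings. The receptors themselves did not pass, with Il6ra at -0.12 ± 0.10 and Il6st, the gene of gp130, at 0.089 ± 0.076. Il11, another ligand of gp130, measured -1.13 and -0.91 with control and 0.37 and 0.25 with knockdown supernatant. It did not pass (1.33 ± 0.19, adjusted p = 0.0779). Lif measured -3.43 and -2.88 with control and -1.87 and -1.91 with knockdown supernatant and did not pass either (1.27 ± 0.73, adjusted p = 0.638).

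Acute phase genes, which fat and liver cells make in inflammation and of which several are known targets of interleukin-6 signalling, rose in part. Serpina3f, a member of a cluster of closely related serpins, measured -1.32 and -1.45 with control and -0.0018 and -0.027 with knockdown supernatant. The difference was 1.37 ± 0.094 (limma adjusted p = 0.0180). A second probe of this gene differed by 2.04 ± 0.31 and did not pass, and binding of transcripts of near relatives to either probe was not tested. Saa3, the serum amyloid A gene of fat cells and macrophages, measured 1.93 and 1.92 with control and 2.76 and 2.69 with knockdown supernatant. It rose by 0.80 ± 0.061 (adjusted p = 0.0204), and haptoglobin (Hp) rose by 0.67 ± 0.067 (adjusted p = 0.0392). Replicates of both genes lay close together, and the groups did not overlap. Of the 21 acute phase genes and their factors tested, 4 rose and 0 fell (limma; 9 higher and 0 lower at an unadjusted p under 0.05), with a median of 0.17. Steap4, a metalloreductase of fat cells, measured 0.64 ± 0.092 (adjusted p = 0.0769), Saa1 0.74 ± 0.10 (adjusted p = 0.0712) and Lcn2, a siderophore-binding protein, 0.10 ± 0.095 (adjusted p = 0.806). Beside these genes the macrophage marker Cd14, also made by fibroblasts, measured 1.18 and 1.16 with control and 1.78 and 1.64 with knockdown supernatant and did not pass (adjusted p = 0.0788). Of the 24 macrophage and leukocyte markers, 12 were above background on all 4 arrays, among them Cd14, Itgam and Fcgr1. The other 12, among them Ptprc, Adgre1 and Spi1, were above it on none. The part of such cells in the result was not tested.

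Ligands of the EGF receptor rose together with inhibitors of the kinase cascade below it. Hbegf, a membrane-bound growth factor that is shed by proteases, measured 2.46 and 2.34 with control and 3.57 and 3.56 with knockdown supernatant. The difference was 1.17 ± 0.078 (limma adjusted p = 0.0170) or 2.25-fold. Ereg, which encodes epiregulin, measured 3.59 and 3.49 with control and 4.69 and 4.62 with knockdown supernatant. It rose by 1.12 ± 0.070 (adjusted p = 0.0151). In both genes the lowest knockdown array stood clear of the highest control array. Of the 8 EGF receptor ligands and receptors tested, 2 rose and 0 fell (limma; 2 higher and 1 lower at an unadjusted p under 0.05). The receptor gene Egfr was at 0.0024 ± 0.066 (adjusted p = 0.998), and Egf at -0.38 ± 0.082 (adjusted p = 0.172). Among the inhibitors, Dusp6, a phosphatase of ERK kinases, measured 2.57 and 2.45 with control and 3.54 and 3.45 with knockdown supernatant. The difference was 0.99 ± 0.097 (adjusted p = 0.0386). Its relative Dusp4 measured 0.83 and 0.77 with control and 1.54 and 1.62 with knockdown supernatant. It rose by 0.78 ± 0.065 (adjusted p = 0.0268). Errfi1, which binds and blocks the EGF receptor, rose by 0.60 ± 0.060 (adjusted p = 0.0392). Of the 19 MAP kinase feedback inhibitors tested, 3 rose and 0 fell (limma; 9 higher and 1 lower at an unadjusted p under 0.05), and their median of 0.30 lay between 0.20 and 0.38 over the scalings. Dusp5 measured 0.94 ± 0.16 and Spry2, an inhibitor of growth factor receptors, 0.83 ± 0.10, and neither passed (adjusted p = 0.120 and 0.0611), nor did Dusp1 at -0.13 ± 0.12 (adjusted p = 0.804). Map3k8, a kinase that feeds into ERK downstream of Toll-like and TNF receptors, measured -2.12 and -2.32 with control and -1.15 and -1.25 with knockdown supernatant. The difference was 1.02 ± 0.089 (adjusted p = 0.0289), and the kinase gene Dyrk3 rose by 0.95 ± 0.073 (adjusted p = 0.0204).

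Further secreted factors were among those that rose. Csf2, which encodes the growth factor GM-CSF of granulocytes and macrophages, measured -3.35 and -3.52 with control and -2.34 and -2.37 with knockdown supernatant. It rose by 1.09 ± 0.079 (limma adjusted p = 0.0204), and 0.57 with normexp. Pdgfb, a chain of platelet-derived growth factor and a mitogen of fibroblasts, measured 1.03 and 0.94 with control and 1.94 and 1.99 with knockdown supernatant. The difference was 0.98 ± 0.087 (adjusted p = 0.0297), while a second probe of Pdgfb differed by 0.72 ± 0.27 and did not pass. Angptl4, an inhibitor of lipoprotein lipase, rose by 0.64 ± 0.066 (adjusted p = 0.0412). The remaining members lay mostly above 0 without passing: of the 32 secreted growth and angiogenic factors tested, 3 rose and 0 fell (limma; 12 higher and 0 lower at an unadjusted p under 0.05). Vegfa, the main driver of vessel growth, measured 0.56 ± 0.078 (adjusted p = 0.0712), Fgf7 0.53 ± 0.075 (adjusted p = 0.0712) and Fgf2 0.62 ± 0.11 (adjusted p = 0.124).

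In the activin and TGF-beta pathway, a ligand subunit, a nuclear corepressor and an inhibitory Smad rose. Inhba, which encodes the subunit that forms activin A, measured 2.13 and 2.14 with control and 3.36 and 3.32 with knockdown supernatant. It rose by 1.21 ± 0.057 (SE, n = 2 arrays per group; limma adjusted p = 0.0107) or 2.31-fold. Smad7, which blocks the type I receptor, measured 1.14 and 1.00 with control and 1.69 and 1.75 with knockdown supernatant. The difference was 0.66 ± 0.072 (adjusted p = 0.0476). Tgif1, a corepressor of Smad proteins, measured 5.10 and 5.06 with control and 5.78 and 5.74 with knockdown supernatant. It rose by 0.68 ± 0.065 (adjusted p = 0.0338). For each of these 3 genes both knockdown arrays lay above both control arrays. Of the 30 activin and TGF-beta genes tested, 4 rose and 0 fell (limma; 10 higher and 0 lower at an unadjusted p under 0.05). Skil and Pmepa1, further target genes of TGF-beta, did not pass, with Skil at 0.55 ± 0.074 and Pmepa1 at 0.42 ± 0.061 (adjusted p = 0.0685 and 0.0788). Id3, an inhibitor of basic helix-loop-helix factors and a direct target of BMP signalling in many cells, measured 0.28 and 0.19 with control and 1.74 and 1.64 with knockdown supernatant. The difference was 1.45 ± 0.068 (adjusted p = 0.0107) or 2.74-fold. Its relative Id1 measured 1.23 and 1.22 with control and 1.94 and 1.86 with knockdown supernatant. It rose by 0.67 ± 0.063 (adjusted p = 0.0331), while Id2 and Id4 did not pass (0.26 ± 0.12 and 0.28 ± 0.11; adjusted p = 0.532 and 0.457). Of the 23 BMP pathway genes and Id proteins tested, 2 rose and 0 fell (limma; 7 higher and 1 lower at an unadjusted p under 0.05), and the inhibitory Smad6 was at 0.28 ± 0.081 (adjusted p = 0.311). Smad9, a Smad of the BMP branch, was at -0.99 ± 0.14 and did not pass (adjusted p = 0.0712).

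The matricellular proteins Ccn2 and Ccn1, which are secreted, bind integrins and are standard target genes of the YAP coactivator, both rose. Ccn2 measured 0.60 and 0.53 with control and 1.93 and 1.72 with knockdown supernatant. The difference was 1.26 ± 0.087 (limma adjusted p = 0.0180), and Ccn1 3.00 and 2.90 with control and 3.91 and 3.78 with knockdown supernatant. It rose by 0.90 ± 0.076 (adjusted p = 0.0282). Of the 30 YAP, SRF and cytoskeleton genes tested, 2 rose and 0 fell (limma; 4 higher and 0 lower at an unadjusted p under 0.05). Ankrd1, another frequent YAP target, was at 0.057 ± 0.063, Amotl2 at 0.31 ± 0.057, and the actin gene Actb at -0.043 ± 0.13 (adjusted p = 0.853, 0.134 and 0.972). Has2, the enzyme that makes hyaluronan, measured 1.48 and 1.51 with control and 2.50 and 2.45 with knockdown supernatant. The difference was 0.98 ± 0.060 (adjusted p = 0.0151), and was the single one of 35 collagen and matrix genes that passed. Thbs1, a matrix protein that can activate latent TGF-beta, lay just outside the threshold (0.70 ± 0.079, adjusted p = 0.05001), and Col1a1 was at 0.091 ± 0.096 (adjusted p = 0.843).

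The largest rise of a named gene was that of Serpinb2, a serpin that inhibits urokinase and is made by activated macrophages and stromal cells. It measured -3.03 and -3.02 with control and -1.08 and -1.08 with knockdown supernatant. It rose by 1.94 ± 0.12 (SE, n = 2 arrays per group; limma adjusted p = 0.0151) or 3.84-fold, against 1.27 with normexp. Replicates of a group differed far less than the groups did. Of the 22 genes of plasminogen activation and coagulation tested, 1 rose and 0 fell (limma; 6 higher and 1 lower at an unadjusted p under 0.05). The receptor of urokinase, Plaur, was at 0.58 ± 0.085, urokinase itself, Plau, at 0.35 ± 0.091, and F3, which encodes tissue factor, at -0.47 ± 0.068 (adjusted p = 0.0788, 0.257 and 0.0759). Among metalloproteinases 1 gene rose and 1 fell. Mmp10, a stromelysin that cleaves matrix proteins, measured -3.07 and -3.0 with control and -1.69 and -1.75 with knockdown supernatant. The difference was 1.31 ± 0.10 (adjusted p = 0.0204), and 0.80 with normexp. Adamts15, a secreted protease that cleaves the proteoglycans versican and aggrecan, measured -1.72 and -1.73 with control and -3.47 and -3.23 with knockdown supernatant and fell by 1.63 ± 0.090 (adjusted p = 0.0109), that is 3.09-fold, against -0.81 or 1.76-fold with normexp. The 2 knockdown arrays of Adamts15 both lay well below its control arrays. The other 25 members tested did not pass, with Timp1, an inhibitor of these proteases, at 0.36 ± 0.072, Mmp13 at 0.51 ± 0.12 and Mmp3 at 0.089 ± 0.069 (adjusted p = 0.148, 0.222 and 0.755).

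Of the factors that remove cytokine mRNA, 2 rose. Zfp36, which encodes tristetraprolin and binds AU-rich elements, measured -3.68 and -4.07 with control and -2.51 and -2.45 with knockdown supernatant. It rose by 1.39 ± 0.13 (limma adjusted p = 0.0331), and 0.67 with normexp. Zc3h12a, the endoribonuclease Regnase-1 that cuts stem-loops in the mRNA of Il6 and other cytokines, measured -1.66 and -1.63 with control and -0.55 and -0.58 with knockdown supernatant. The difference was 1.08 ± 0.058 (adjusted p = 0.0109). The control replicates of Zfp36 lay further apart than those of most genes that passed, yet below both knockdown arrays. Of the 18 regulators of mRNA stability tested, 2 rose and 0 fell (limma; 7 higher and 1 lower at an unadjusted p under 0.05), with Zfp36l2 at 0.45 ± 0.076 and Zfp36l1 at 0.20 ± 0.069 (adjusted p = 0.114 and 0.381). Ptgs2, the inducible cyclooxygenase of prostaglandin synthesis, measured 2.08 and 2.00 with control and 3.27 and 3.16 with knockdown supernatant. It rose by 1.18 ± 0.090 (adjusted p = 0.0204) or 2.26-fold. It was the single one of 15 prostanoid genes that passed: the constitutive enzyme Ptgs1 was at 0.0039 ± 0.12, the terminal synthase Ptges at -0.04 ± 0.084 and the receptor Ptgfr at -0.54 ± 0.11 (adjusted p = 0.999, 0.948 and 0.145). Sphk1, the kinase that makes sphingosine 1-phosphate, rose by 0.60 ± 0.062 (adjusted p = 0.0408), while a second probe, at 0.60 ± 0.070, did not pass (adjusted p = 0.0567). Rgs16, which shortens signalling by G protein-coupled receptors, measured 1.46 and 1.44 with control and 2.61 and 2.56 with knockdown supernatant. The difference was 1.14 ± 0.098 (adjusted p = 0.0286), and was the single one of 12 Rgs genes that passed.

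Of the chemokines and the IL-1 system, 1 ligand and 1 receptor rose. Cxcl1, a chemokine that attracts neutrophils, measured 1.62 and 1.51 with control and 2.44 and 2.34 with knockdown supernatant. It rose by 0.82 ± 0.083 (limma adjusted p = 0.0395). Il1rl1, which encodes ST2, the receptor of interleukin-33, measured 4.29 and 4.38 with control and 5.17 and 5.25 with knockdown supernatant. The difference was 0.88 ± 0.068 (adjusted p = 0.0204), and a second of its 3 tested probes passed too when every probe was tested, at 0.94 ± 0.064. In both genes the replicates lay closer to each other than the groups. Of the 20 chemokines tested, 1 rose and 0 fell (limma; 6 higher and 1 lower at an unadjusted p under 0.05). Ccl2, which attracts monocytes, measured 6.27 and 6.25 with control and 6.88 and 6.74 with knockdown supernatant and did not pass (0.56 ± 0.086, adjusted p = 0.0866), nor did Cxcl10 at 0.77 ± 0.13 or Cxcl5 at 0.48 ± 0.067 (adjusted p = 0.103 and 0.0712). Ccl20 measured -3.84 and -5.01 with control and -5.47 and -7.68 with knockdown supernatant, with wide spread, and did not pass (adjusted p = 0.412). Of the 22 NF-kB subunits and feedback inhibitors tested, 0 rose and 0 fell (limma; 6 higher and 0 lower at an unadjusted p under 0.05). Its members Bcl3, Nfkbiz and Nfkbia, regulators of NF-kB that it is known to induce, were at 0.57 ± 0.065, 0.39 ± 0.064 and 0.27 ± 0.064 (adjusted p = 0.0518, 0.105 and 0.209). Of the 36 interferon response genes tested, 0 rose and 0 fell (limma; 7 higher and 0 lower at an unadjusted p under 0.05), with Rsad2 at 0.53 ± 0.067 and Isg15 at 0.11 ± 0.088 (adjusted p = 0.0621 and 0.754).

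**Figure D3:**
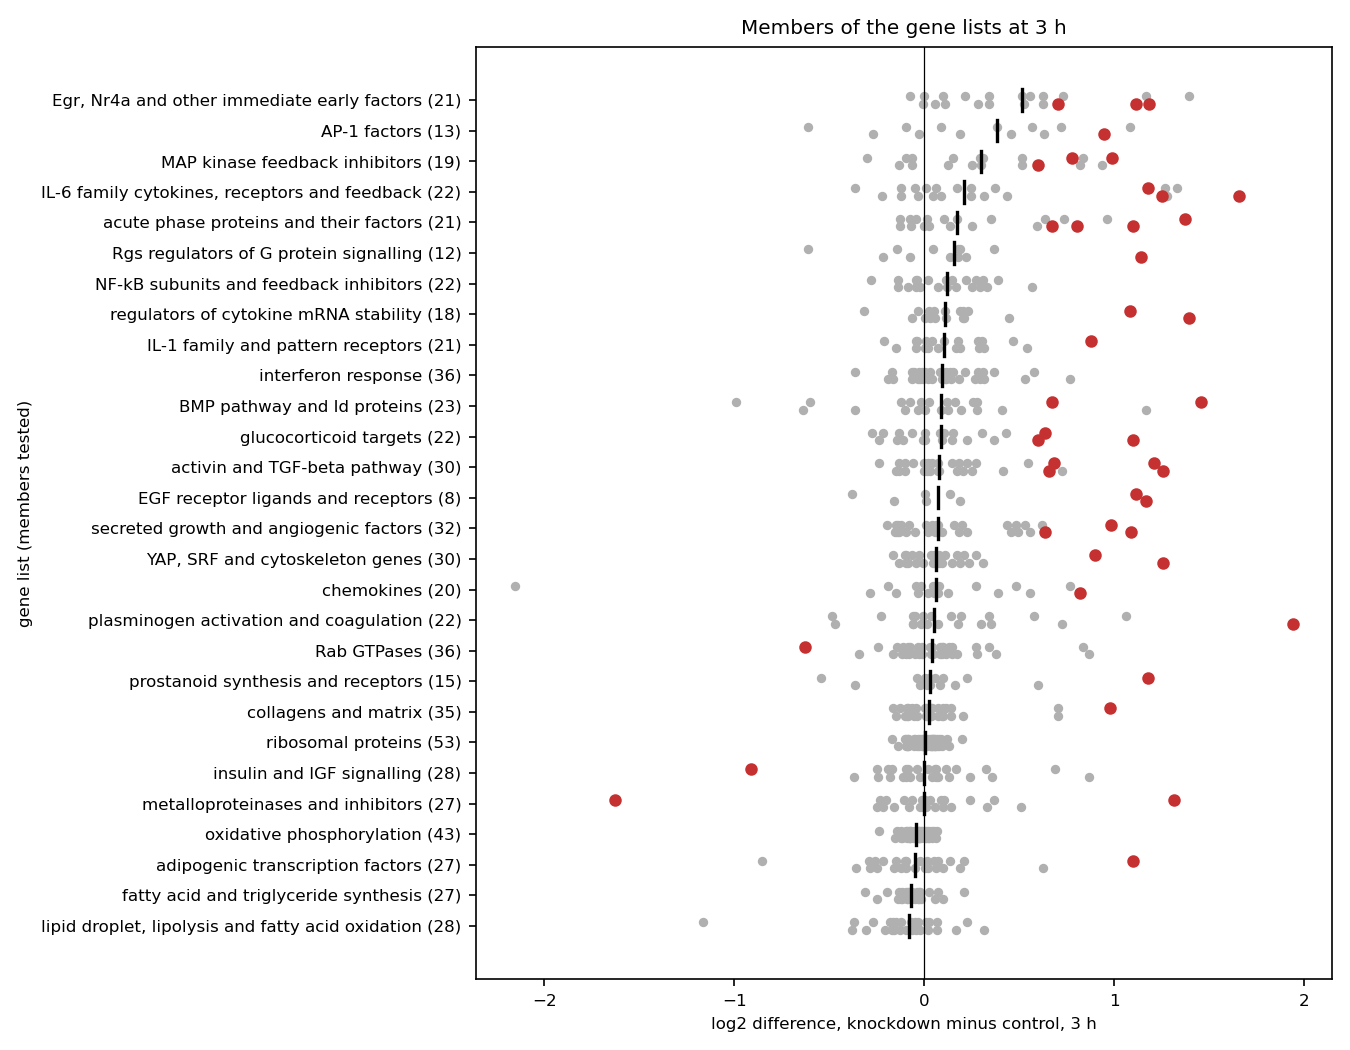
Log2 difference between knockdown and control at 3 h (horizontal) for the tested members of 28 of the 50 gene lists (rows, with the number tested), sorted by the list's median (black bar). The rows are the 22 lists with a member that passed and a few without one that were picked by name. Most lists without one, the marker lists among them, are not shown. Members that passed are red; the medians of the lists shown run from -0.08 for lipid droplet and lipolysis genes to 0.51 for the Egr, Nr4a and other immediate early factors, and most members of most lists lie near 0.

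The 6 genes that fell were of unlike kinds. Besides Adamts15 they were Foxo6, Hunk, Slc25a29, Rab3a and Kcne1. Foxo6, a forkhead factor regulated by insulin, measured 0.16 and 0.10 with control and -0.79 and -0.76 with knockdown supernatant and fell by 0.91 ± 0.095 (limma adjusted p = 0.0412; -0.60 with normexp), while its relatives Foxo1 and Foxo3 did not pass (0.12 ± 0.097 and 0.17 ± 0.25; adjusted p = 0.782 and 0.914). Rab3a, a small GTPase of regulated secretion, measured 1.14 and 1.13 with control and 0.54 and 0.47 with knockdown supernatant and fell by 0.63 ± 0.061 (adjusted p = 0.0377), as the single one of 36 Rab genes that passed. Slc25a29, a mitochondrial carrier of basic amino acids, fell by 0.65 ± 0.070 (adjusted p = 0.0446), and Hunk, a kinase related to AMPK, by 0.75 ± 0.082 (adjusted p = 0.0476). Hunk passed in 3 of 21 alternatives and was at -0.27 with normexp (adjusted p = 0.122). Kcne1, a subunit of voltage-gated potassium channels, measured -4.42 and -3.95 on the control arrays and lay below the background test's limit on both arrays with knockdown supernatant. With the scaling used here it was at least 3.05-fold lower (adjusted p = 0.0312), a bound that sets the control mean against the lowest signal well above background on each knockdown array. The bound depends on the background correction and its offset: with normexp the fitted difference was -0.53 (adjusted p = 0.0383). With the deposited values, which carry the scanner's own correction, Kcne1 did not pass (limma adjusted p = 0.732). Its spot on control 6 h replicate 1 was an outlier and was left out, so its fit used the remaining arrays. All 6 genes had both knockdown arrays below both control arrays, and the control replicates of Kcne1 differed most.

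In the lists of lipid metabolism no gene passed at 3 h. Of the 28 genes of lipid droplets, lipolysis and fatty acid oxidation tested, 0 rose and 0 fell (limma; 1 higher and 5 lower at an unadjusted p under 0.05), with a median of -0.082 that lay between -0.13 and -0.0051 over the scalings. Fabp4, the fatty acid carrier of fat cells, measured 5.28 and 5.18 with control and 5.31 and 5.27 with knockdown supernatant, and lipoprotein lipase (Lpl) 4.13 and 4.12 with control and 4.14 and 4.16 with knockdown supernatant, so the arrays of the groups overlapped for Fabp4 and all but met for Lpl. Plin4, a coat protein of lipid droplets, was at -0.38 ± 0.083 and G0s2, an inhibitor of the lipase Pnpla2, at -1.16 ± 0.32 (adjusted p = 0.178 and 0.283), with the knockdown replicates of G0s2 at -5.42 and -4.39. Ppargc1a, a coactivator of mitochondrial genes, was at -0.86 ± 0.20 (adjusted p = 0.209). Of the 27 genes of fatty acid and triglyceride synthesis tested, 0 rose and 0 fell (limma; 1 higher and 2 lower at an unadjusted p under 0.05), and their median of -0.067 turned above 0 with each array's median as its scale. Of the 27 cholesterol genes tested, 0 rose and 0 fell (limma; 0 higher and 0 lower at an unadjusted p under 0.05), with all members between -0.12 and 0.20. The ribosomal proteins spread from -0.17 to 0.20 and the genes of oxidative phosphorylation from -0.24 to 0.068, and in neither list did a member pass in limma, with 0 of 53 and 0 of 43 at an unadjusted p under 0.05. The control genes Gapdh and Actb were at -0.054 ± 0.11 and -0.043 ± 0.13, and mouse Usp2, which was not targeted, at 0.13 ± 0.10 (adjusted p = 0.944, 0.972 and 0.765). Lists with no member that passed numbered 28 of 50, and their medians ran from -0.090 to 0.13. Highest among these was Myc and ribosome biogenesis, where 0 of 28 passed in limma and 7 were higher and 1 lower at an unadjusted p under 0.05, with Myc itself at 0.63 ± 0.077 (adjusted p = 0.0601).

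Named genes outside these groups rose too. Mylk2, a kinase of myosin light chains, rose by 0.68 ± 0.074 (limma adjusted p = 0.0465; 0.41 with normexp, which did not pass), Kctd11, an adaptor of ubiquitin ligases, by 0.64 ± 0.065, the small membrane protein gene Smim3 by 0.66 ± 0.067 and Mir17hg, the host transcript of a cluster of microRNAs, by 0.65 ± 0.065. The pseudogene Hmga2-ps1 measured 0.63 and 0.51 with control and 1.46 and 1.48 with knockdown supernatant. It rose by 0.90 ± 0.095 (adjusted p = 0.0430), while the probe of Hmga2 itself, a chromatin protein, was at 0.37 ± 0.083 (adjusted p = 0.193); whether either probe also binds the transcript of the other was not tested.

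The 11 unnamed probes that passed were all higher. The 2 probes A_30_P01018824 and A_30_P01022549 are both named for chr1:175705225-175717250 (mm9, the build of the array's design) and rose together: A_30_P01018824 measured 3.94 and 3.88 with control and 4.49 and 4.55 with knockdown supernatant, and A_30_P01022549 3.1 and 3.0 with control and 3.66 and 3.67 with knockdown supernatant. Their differences were 0.61 ± 0.061 and 0.61 ± 0.066 (limma adjusted p = 0.0392 and 0.0446). The probe for the Ensembl transcript ENSMUST00000029611, A_55_P2076871, measured 1.31 and 1.35 with control and 2.09 and 2.08 with knockdown supernatant, a difference of 0.76 ± 0.061 (adjusted p = 0.0248). Of the other 8, 4 were well above background on neither control array and entered the test through the knockdown arrays alone. For 3 of these 4, the knockdown mean was set against the lowest signal well above background on each control array. This gave bounds of 1.39-fold, 1.51-fold and 1.82-fold, and no bound could be given for the remaining probe. That lowest signal belongs to other probes, and the bounds hold only with the scaling and background correction used here. What these transcripts are was not analysed here.

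The same contrast after 6 h, measured on the other 4 arrays, was set beside the 3 h values. Of the features tested at 3 h, 380 were higher at 6 h (1.5%) and 159 lower (0.626%). Of the 59 that rose at 3 h, 51 also rose at 6 h, which is 86.4% of those at 3 h and 13.4% of those at 6 h, and 5 of the 6 that fell also fell at 6 h. The 2 comparisons share no array, but they share the estimate of each feature's spread, so a feature with a small spread passes more easily in both. Of the named genes that passed at 3 h, 4 did not pass at 6 h: Zfp36 (0.72 ± 0.13, limma adjusted p = 0.0627), Cxcl1 (0.36 ± 0.083, adjusted p = 0.105), Hmga2-ps1 (0.28 ± 0.095, adjusted p = 0.209) and Kcne1, which was above background on 1 control array and no knockdown array at 6 h. No feature passed the test of the difference between the 6 h and the 3 h effect in limma (0%), with 2177 at an unadjusted p under 0.05, among them 24 of the 65. Over the 48 named genes that rose, the median difference was 0.96 at 3 h and 0.85 at 6 h, with 25 larger and 23 smaller at 6 h. These 48 were picked for passing at 3 h, which by itself favours large 3 h differences. Their medians therefore do not measure a change over time.

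The genes nearest to a change between the times were acute phase genes and Egr2. Saa3 measured 2.59 and 2.58 with control and 4.51 and 4.57 with knockdown supernatant at 6 h, so its difference went from 0.80 at 3 h to 1.95 at 6 h (unadjusted p = 1.4e-05 for the change; limma adjusted p = 0.113). Hp went from 0.67 to 1.71 (unadjusted p = 4.3e-05; adjusted p = 0.183). Egr2 went from 1.11 to 2.08 (adjusted p = 0.288). In the other direction Inhba measured 1.21 at 3 h and 0.66 at 6 h, and Cish 1.18 and 0.62 (adjusted p = 0.316 and 0.316 for the change). Il6, Ptgs2 and Has2 differed by almost the same amount at both times, with 1.66 and 1.63, 1.18 and 1.17, and 0.98 and 0.96. For some genes the level itself was much lower at 6 h in both groups. Ereg stood at 0.74 and 0.72 with control and 2.04 and 2.13 with knockdown supernatant at 6 h, and Hbegf at 0.49 and 0.61 with control and 1.49 and 1.58 with knockdown supernatant, all below their 3 h values given above. Adamts15 was higher at 6 h in both groups (-0.60 and -0.54 with control and -2.30 and -2.29 with knockdown supernatant), and its difference there was -1.72 ± 0.090. The 3 h and 6 h arrays lay in different rows of the slide, so time and row cannot be told apart.

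**Figure D4:**
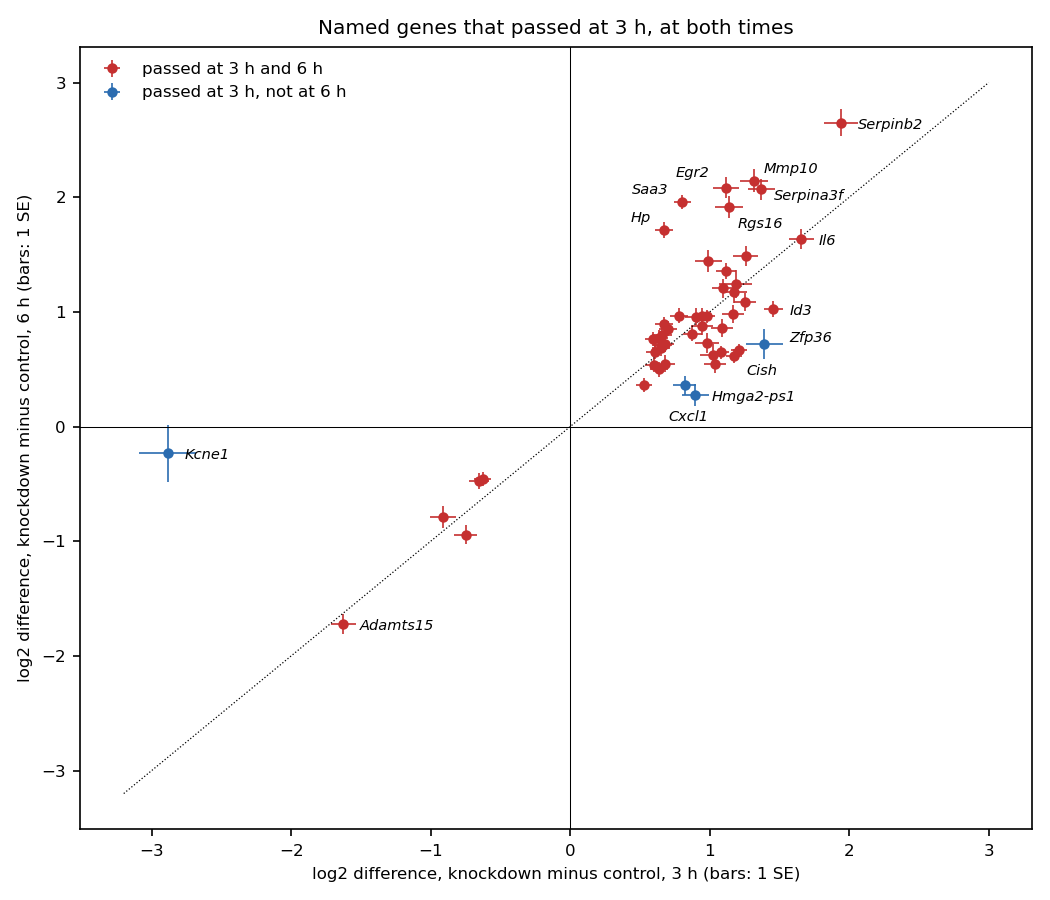
Log2 difference between knockdown and control at 6 h (vertical) against that at 3 h (horizontal) for 53 of the 54 named genes that passed at 3 h, with bars of 1 SE and a dotted line where both are equal. Saa3 and Hp lie furthest above the line among genes that rose, Zfp36, Cxcl1 and Hmga2-ps1 (blue) below it and short of the threshold at 6 h, and Kcne1 far from it; no gene passed the test of the difference between the times.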

How the data were processed

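Each of the 8 samples was hybridised to an Agilent one-colour array on 1 slide, and the spot intensities are those that the authors deposited, extracted, per the submitters' processing notes, by Feature Extraction 10.7.3.1 and already background-subtracted per the file headers. The authors also deposited a table of log2 values, which served as an alternative; set against the scanner values it was their log2 plus 1 shift per array. Here, log2 intensity was reduced by the 75th percentile of each array, outlier spots were left out and spots of 1 probe averaged. Of 55681 probes, 27235 were named through transcript accessions and 20 through symbols in RefSeq tables, and 28426 stayed unnamed; the brightest probe stands for a gene.

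Features that either 3 h group had well above background on both of its arrays were tested with limma 3.58.1 in R 4.3.3, with 4 group means fitted to all 8 arrays, and p-values were adjusted after Benjamini and Hochberg over 25395 features. A feature passed at an adjusted p under 0.05, and errors are standard errors of limma's difference. The script was tested on simulated data. Python 3.11.15 with pandas 2.3.3 and matplotlib 3.10.9 made the tables and plots. Alternatives changed the scaling, background correction, filter, summary of probes, variance model and arrays. The number of arrays limits the precision, and 0 spots were saturated.

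Named are the largest changes that passed without overlap between groups (up to 30 higher, 15 lower), the 3 members of each list with the smallest p, and fixed reference genes. Every other gene named (of those that passed Hp, Smad7, Sphk1, Foxs1, Dot1l, Tsc22d1, Mylk2, Kctd11, Smim3 and Mir17hg, and of those that did not Il11, Lif, Spry2, Vegfa, Steap4, Saa1, Plaur, Skil, Smad9 and further family members given for comparison) and the unnamed probes were singled out after their values were seen. A few genes that the rule names are not reported here. The members and gene lists were chosen with earlier results of these data known.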

Additional observations from a re-analysis of the deposited data

How the results depend on the processing

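All alternatives were set down with earlier results of the data known. All 65 features that passed at 3 h kept their direction under every setting in which they had a value, but 10 of the 54 named genes had a log2 difference over 1.5 times smaller with normexp. Counts that passed (higher and lower at 3 h, then higher and lower at 6 h, against 59, 6, 380 and 159) moved with the settings: 34, 2, 1240 and 89 with each array's median as its scale; 5, 5, 30 and 13 with no scaling; 238, 86, 131 and 42 with array weights; and 279, 69, 902 and 293 with a variance trend and robust variances. Without the filter on dim probes they were 0, 0, 12 and 5, with 3128 features at an unadjusted p under 0.05 in limma at 3 h. The 3 h arrays fitted alone gave 0 and 0 at 3 h, with 3570 at an unadjusted p under 0.05. Normexp background correction with quantile normalization gave 186 and 28 at 3 h, and the deposited values gave 3 lower at 3 h. For the difference between the times, where 0 passed, normexp gave 5 and the robust fit 16. Leaving out 1 array at a time gave 0 to 42 higher and 0 to 8 lower at 3 h, 84 to 985 higher and 19 to 1005 lower at 6 h, and 0 to 267 for the difference; a group left with 1 array was assumed to vary like the others.

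The replicate numbers showed no sign of pairing the arrays: same-numbered arrays correlated at -0.056 to 0.086 in their deviations from the group means. Whether same-numbered arrays shared a preparation was not tested. With the replicate number as a block 8 features were higher and 2 lower at 3 h, 9 of these 10 also without it, and 137 were higher and 49 lower at 6 h. The median of all features lay at -0.016 and moved to 0.061 with median scaling and -0.067 with no scaling. With 2 arrays per group on 1 slide, the spread between slides or between batches of supernatant was not measured.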

Other observations

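Several early response genes differed by more than 2-fold at 3 h without passing (limma). Npas4, a transcription factor induced by activity in neurons, measured -3.77 and -3.52 with control and -2.18 and -2.32 with knockdown supernatant. The difference was 1.40 ± 0.18 (adjusted p = 0.0680). Fosb, a Fos family member, differed by 1.08 ± 0.21, Btg2, an antiproliferative gene, by 1.17 ± 0.48, and Pim1, a kinase gene often induced through STAT factors, by 1.28 ± 0.60 (adjusted p = 0.142, 0.472 and 0.532). In all, 63 features were at least 2-fold higher and 58 at least 2-fold lower, of which 39 and 22 were named, and 21 and 2 of the named ones passed. Only 29 of the 39 and 6 of the 22 were well above background on all 4 arrays, so many of the lower ones lay near the floor. Npas4, Fosb, Btg2 and Pim1 were chosen after their values were seen.

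On the lower side, Otop1, a proton channel gene, measured -3.35 and -3.42 with control and -4.94 and -4.28 with knockdown supernatant. The difference was -1.23 ± 0.23 (adjusted p = 0.137), and Syn3, a synapsin, was not well above background on the knockdown arrays and did not pass (adjusted p = 0.157).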
